A study of Homo sapiens with 4 samples.

Results

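Immune checkpoint ligands are surface or secreted proteins through which a tumour cell restrains the immune cells that meet it, and IDO1 is an enzyme that does so through tryptophan. The set described here held 10 of the 46427 genes of the count table, chosen by gene symbol and not by measured values: CD274, PDCD1LG2, IDO1, CD276, VTCN1, LGALS9, PVR, NECTIN2, CD47 and TNFRSF14. RNA sequencing was done on 4 cultures of SNU638, a human gastric cancer cell line. Cultures carried a control vector (biological replicates 1 and 2) or overexpressed YTHDF1, a cytoplasmic reader of N6-methyladenosine on mRNA (biological replicates 1 and 2). Cells of both groups were kept without serum for 24 h and then received IFN-γ at 10 ng/ml, for 8 h by the labels, while the legends of the study give a longer time. No culture without IFN-γ was part of the series, so induction by the cytokine could not be measured. Plasmids were introduced by transfection according to the general methods of the study, and the share of cells that carried them was not stated.

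IFN-γ binds its receptor on the tumour cell, signalling through the kinases JAK1 and JAK2 follows, and the transcription factor IRF1, itself induced, switches on many immune genes. In epithelial tumours this pathway is best known for raising PD-L1 (encoded by CD274), PD-L2 (encoded by PDCD1LG2) and IDO1, so a cytokine that makes tumour cells visible to T cells also gives them brakes against those cells. The other ligands act on separate receptors: CD276 and VTCN1 are B7-family proteins, LGALS9 encodes galectin-9, PVR and NECTIN2 bind TIGIT and CD226 on T and NK cells, CD47 signals through SIRPA on macrophages, and TNFRSF14 (HVEM) engages BTLA and CD160. The study asked how YTHDF1 overexpression changes the response of gastric cancer cells to IFN-γ.

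Promoter sequences are shown for the 3 genes of the set that differed most between replicate numbers and had a RefSeq window kept here (GRCh38.p14). A window ran from 250 bases before to 50 bases after the annotated start, on the strand of the gene. For 8 of the 10 genes, 9 windows were kept. IDO1 and PDCD1LG2 had no entry. Capitals mark letters matching GAAANNGAAA on either strand, a spaced pair of the GAAA cores that IRF factors bind, or TTCNNNGAA, the palindrome known as GAS, an element of IFN-γ-responsive promoters. The first window is that of CD274 (chr9:5450292-5450591, plus strand).
CD274: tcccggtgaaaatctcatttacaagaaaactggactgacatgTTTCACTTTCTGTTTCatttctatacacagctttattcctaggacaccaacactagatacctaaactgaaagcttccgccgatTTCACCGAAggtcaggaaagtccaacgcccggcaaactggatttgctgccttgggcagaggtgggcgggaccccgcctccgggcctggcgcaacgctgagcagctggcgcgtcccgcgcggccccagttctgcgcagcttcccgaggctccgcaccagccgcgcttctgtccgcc
The window of LGALS9 (chr17:27630938-27631237, plus strand) follows.
LGALS9: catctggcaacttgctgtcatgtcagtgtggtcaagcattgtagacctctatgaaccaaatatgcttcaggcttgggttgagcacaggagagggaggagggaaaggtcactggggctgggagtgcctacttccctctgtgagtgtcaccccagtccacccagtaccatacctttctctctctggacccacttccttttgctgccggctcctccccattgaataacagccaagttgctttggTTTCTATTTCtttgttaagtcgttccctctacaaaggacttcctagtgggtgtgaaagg
The window of TNFRSF14 (chr1:2556121-2556420, plus strand) has no capitals.
TNFRSF14: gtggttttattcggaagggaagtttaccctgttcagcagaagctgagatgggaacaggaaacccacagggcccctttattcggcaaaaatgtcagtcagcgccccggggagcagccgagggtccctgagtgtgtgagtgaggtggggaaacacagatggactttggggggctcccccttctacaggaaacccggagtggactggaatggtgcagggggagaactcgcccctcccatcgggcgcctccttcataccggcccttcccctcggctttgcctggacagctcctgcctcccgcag

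The CD274 window held 2 matches to GAAANNGAAA, which overlapped and began 208 and 202 bases before the start, and 1 match to TTCNNNGAA that began 125 bases before it. LGALS9 held 1 match to GAAANNGAAA, which began 9 bases before its start and reached the start base. Neither motif was found in the windows of TNFRSF14, CD276, VTCN1, PVR, NECTIN2 or CD47. The windows of TNFRSF14 and CD276 lie inside the gene spans given below, so the bases before the outer ends of these spans were not searched. Of 35116 RefSeq promoters of this length, 3.57% held GAAANNGAAA and 7.66% held TTCNNNGAA. A match describes letters in a window and not binding, and the absence of a match says only that the letters are not there. CD274 lies at chr9:5450542-5470554, and PDCD1LG2 begins 39976 bases after its end, at chr9:5510531-5571282. The long noncoding RNA gene INCR1, not analysed here, overlaps both. PVR (chr19:44643910-44666162) and NECTIN2 (chr19:44846297-44889223) are also neighbours, 180134 bases apart. The remaining genes are scattered, with CD276 at chr15:73683944-73714514, LGALS9 at chr17:27631188-27649560, CD47 at chr3:108043091-108091031, VTCN1 at chr1:117143587-117210927 and TNFRSF14 at chr1:2554234-2563829.

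The 4 libraries held 57398137 to 60864942 counts, and 17781 genes passed a filter on low counts. Levels are given as CPM, counts scaled to a common library size, on library sizes scaled by the trimmed mean of M-values, where 3 counts correspond to 0.0497 to 0.0529 CPM. YTHDF1 was read at 82.2 and 80.3 CPM in control replicates 1 and 2 and at 16494 and 2628 CPM in YTHDF1 replicates 1 and 2, so each overexpressing library carried its label, at unequal levels. Before any comparison of the vectors, the 2 replicate numbers stood apart across the transcriptome. By the quasi-likelihood test of edgeR, with p-values adjusted after Benjamini and Hochberg, 4191 genes (23.6% of those tested) were higher and 5167 (29.1%) were lower in replicate 2. The labels give a number and no date, batch or passage, so what the number stands for cannot be told apart from the differences below. CD40, SIRPA and AADAT, chosen here after their values were seen, had 409 to 1590 counts in the replicate 1 libraries and 0 to 7 in the replicate 2 libraries. Whether cultures of both numbers came from the same cell stock was not tested, and this bears on every difference between replicate numbers given here. Of 8 gastric epithelial markers 6 were tested, 3 were higher and 3 lower in replicate 2, CDH17 and TFF3 were at 0, and their summed level ranged from 3917 to 6720 CPM. Among these CLDN4, a tight junction claudin, was at 55.0, 0.934, 56.6 and 0.994 CPM in control 1, control 2, YTHDF1 1 and YTHDF1 2. Leukocyte markers summed to between 6.67 and 7.78 CPM, with 5 of 12 at 0, and fibroblast and endothelial markers to between 6.81 and 12.4 CPM, with 2 of 10 at 0. Their part in the results was not tested.

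Differences between replicate numbers within the set ran from 1.14-fold for NECTIN2 to 2.78-fold for IDO1. All 8 genes that passed the filter were called between replicates 2 and 1: IDO1, TNFRSF14, LGALS9, CD274 and CD47 were higher in replicate 2, and CD276, PVR and NECTIN2 were lower. None was called between YTHDF1 and control. PDCD1LG2 and VTCN1 did not pass the filter. In bulk cultures, a change in the share of cells that express a gene and a change in RNA per cell cannot be told apart.

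**Figure D1:**
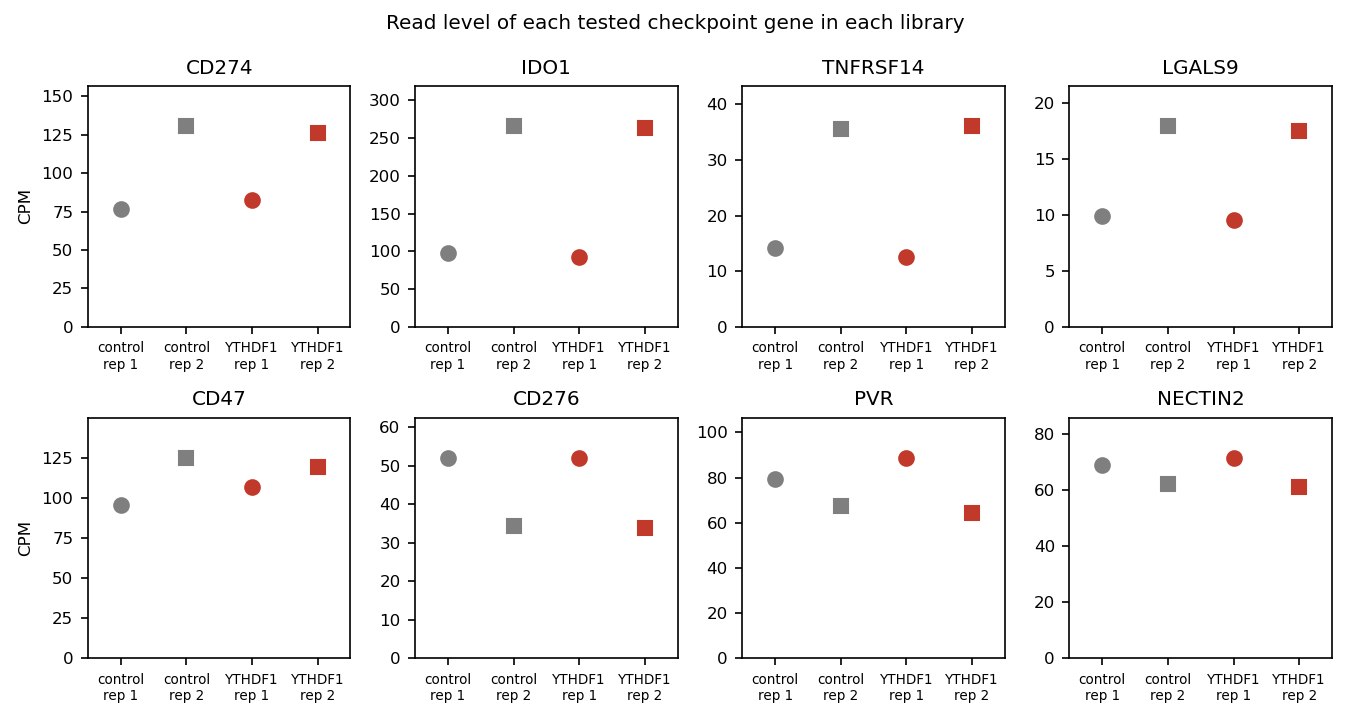
Level of the 8 tested genes (vertical axis, CPM, from 0) in each of the 4 libraries; circles are replicate 1 and squares replicate 2, grey is control and red is YTHDF1. Each pair of squares lies above (CD274, IDO1, TNFRSF14, LGALS9, CD47) or below (CD276, PVR, NECTIN2) the pair of circles, while grey and red symbols of the same shape lie close together.

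CD274 encodes PD-L1, a ligand of PD-1, which is an inhibitory receptor on T cells. Antibodies that block the PD-1 and PD-L1 pathway are used in immunotherapy. It was read at 76.9 and 131 CPM in control replicates 1 and 2 and at 82.5 and 126 CPM in YTHDF1 replicates 1 and 2 (4572, 7410, 4856 and 7632 counts). Both replicate 2 libraries were above both replicate 1 libraries, and the vectors overlapped. CD274 was 1.61-fold higher in replicate 2, a log2 fold change of 0.69 (SE 0.0476, 95% interval 0.58 to 0.80, edgeR adjusted p = 4.95e-06). The difference was 0.76 on the log2 scale within control and 0.62 within YTHDF1. Between the vectors the log2 fold change was 0.0093 (SE 0.37, 95% interval -1.06 to 1.08, edgeR adjusted p = 1.00). Within replicate 1 YTHDF1 was higher than control, at a CPM ratio of 1.07 (95% interval 1.03 to 1.12, counting error only), and within replicate 2 it was lower, at 0.968 (0.937 to 0.999). Each ratio compares 1 culture with 1 culture and leaves out the spread between cultures, so neither shows an effect of the vector.

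PDCD1LG2 encodes PD-L2, a second ligand of PD-1 that is commonest on antigen-presenting cells. Control replicate 1 had 7 counts of it and each of the other 3 libraries had 4, or 0.0663 to 0.118 CPM. These values are close to the level of 3 counts, and no difference was detectable at this depth: the CPM ratio of YTHDF1 to control was 0.577 in replicate 1 with an exact interval of 0.124 to 2.27, and 0.939 (0.175 to 5.04) in replicate 2. Scaled by exon length, the mean level of CD274 was 25.3 CPM per kilobase and that of PDCD1LG2 was 0.0341, although the 2 PD-1 ligands are neighbours on chromosome 9.

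IDO1, the enzyme that opens the tryptophan to kynurenine route and so starves and inhibits T cells, differed most of the set between replicate numbers. It was read at 97.1 and 266 CPM in control replicates 1 and 2 and at 92.7 and 263 CPM in YTHDF1 replicates 1 and 2 (5771, 15068, 5461 and 15853 counts). The replicate 2 libraries were both high and the replicate 1 libraries both low, with no overlap, whereas the vectors overlapped. IDO1 was 2.78-fold higher in replicate 2, a log2 fold change of 1.48 (SE 0.0402, 95% interval 1.38 to 1.57, edgeR adjusted p = 1.90e-08), with 1.45 within control and 1.5 within YTHDF1. Between the vectors the log2 fold change was -0.030 (SE 0.76, 95% interval -2.23 to 2.17, edgeR adjusted p = 1.00). YTHDF1 was lower than control within both numbers, at a CPM ratio of 0.956 (0.921 to 0.992) in replicate 1 and 0.988 (0.967 to 1.01) in replicate 2, intervals that cover counting error only. IDO1 spans chr8:39913891-39928790 (GRCh38.p14) and overlaps no other annotated gene.

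CD276 was lower and LGALS9 higher in replicate 2, while VTCN1 was not read. CD276 (B7-H3), a B7 protein found on many carcinomas, was at 52.1 CPM in both replicate 1 libraries and at 34.3 and 33.7 CPM in replicate 2 of control and YTHDF1. It was 1.53-fold higher in replicate 1, with a log2 fold change of replicate 2 against 1 of -0.62 (SE 0.0498, 95% interval -0.73 to -0.50, edgeR adjusted p = 1.33e-05). VTCN1 (B7-H4), a relative of CD276, had 0 counts in all 4 libraries, which allows up to 0.0497 to 0.0529 CPM. LGALS9 was at 9.92 and 9.56 CPM in replicate 1 of control and YTHDF1 and at 17.9 and 17.5 CPM in replicate 2. Galectin-9 binds TIM-3 among other glycoproteins, and its mRNA was 1.82-fold higher in replicate 2 (log2 fold change 0.86, SE 0.0792, 95% interval 0.68 to 1.04, edgeR adjusted p = 2.97e-05). In neither CD276 nor LGALS9 did replicate 1 and replicate 2 overlap. The near-identical copies LGALS9B, with 3 to 14 counts, and LGALS9C, with 0 counts, could share reads with LGALS9. Between vectors the log2 fold change was -0.0082 for CD276 (95% interval -0.97 to 0.95) and -0.043 for LGALS9 (-1.41 to 1.32).

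PVR and NECTIN2, the pair of nectin-family ligands that TIGIT and CD226 compete for, were both lower in replicate 2. PVR was read at 79.4 and 67.6 CPM in control replicates 1 and 2 and at 88.8 and 64.3 CPM in YTHDF1 replicates 1 and 2. NECTIN2 was read at 68.9 and 61.9 CPM in control and at 71.5 and 60.99 CPM in YTHDF1. For each gene the replicate 1 libraries were above the replicate 2 libraries without overlap, by 1.28-fold for PVR and 1.14-fold for NECTIN2. The log2 fold change of replicate 2 against 1 was -0.35 for PVR (SE 0.0601, edgeR adjusted p = 0.00122) and -0.19 for NECTIN2 (SE 0.0452, edgeR adjusted p = 0.00682). The NECTIN2 call was lost without control replicate 2 (edgeR adjusted p = 0.0540) and without YTHDF1 replicate 2 (0.0741). For PVR the difference was -0.23 within control and -0.47 within YTHDF1. The CPM ratio of YTHDF1 to control for PVR, 1 culture against 1, was 1.12 (95% interval 1.08 to 1.16, counting error only) in replicate 1 and 0.951 (0.909 to 0.995) in replicate 2. For NECTIN2 these ratios were 1.04 (0.994 to 1.08) and 0.985 (0.940 to 1.03). PVR overlaps CEACAM19, which had 31 to 83 counts, and the microRNA gene MIR4531, which had 0.

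CD47, the signal by which a cell avoids being eaten by macrophages, was read at 95.6 and 125 CPM in control replicates 1 and 2 and at 106 and 119 CPM in YTHDF1 replicates 1 and 2. Replicate 2 was above replicate 1 without overlap, by 1.21-fold (log2 fold change 0.27, SE 0.0564, 95% interval 0.14 to 0.40, edgeR adjusted p = 0.00361), the smallest of the 5 rises. The YTHDF1 libraries lay inside the range of the control libraries. The CPM ratio of YTHDF1 to control was 1.11 (1.07 to 1.15) in replicate 1 and 0.951 (0.920 to 0.983) in replicate 2 (counting error only, 1 culture against 1).

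TNFRSF14 encodes HVEM, which inhibits T cells through BTLA and stimulates them through LIGHT. It was read at 14.2 and 35.5 CPM in control replicates 1 and 2 and at 12.6 and 36.1 CPM in YTHDF1 replicates 1 and 2, and the 2 numbers did not overlap. TNFRSF14 was 2.67-fold higher in replicate 2 (log2 fold change 1.42, SE 0.0736, 95% interval 1.25 to 1.58, edgeR adjusted p = 8.87e-07), second to IDO1. Between vectors its log2 fold change was -0.032 (95% interval -2.17 to 2.11), with a CPM ratio of 0.883 (0.799 to 0.976) in replicate 1 and 1.02 (0.956 to 1.08) in replicate 2. The antisense gene TNFRSF14-AS1 overlaps it and had 8, 24, 11 and 49 counts in control 1, control 2, YTHDF1 1 and YTHDF1 2. The libraries were made with a stranded kit, but the strand setting of the counting was not given in the sources used here, so reads of the pair may not be separated. The sense gene had 740 to 2177 counts.

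**Figure D2:**
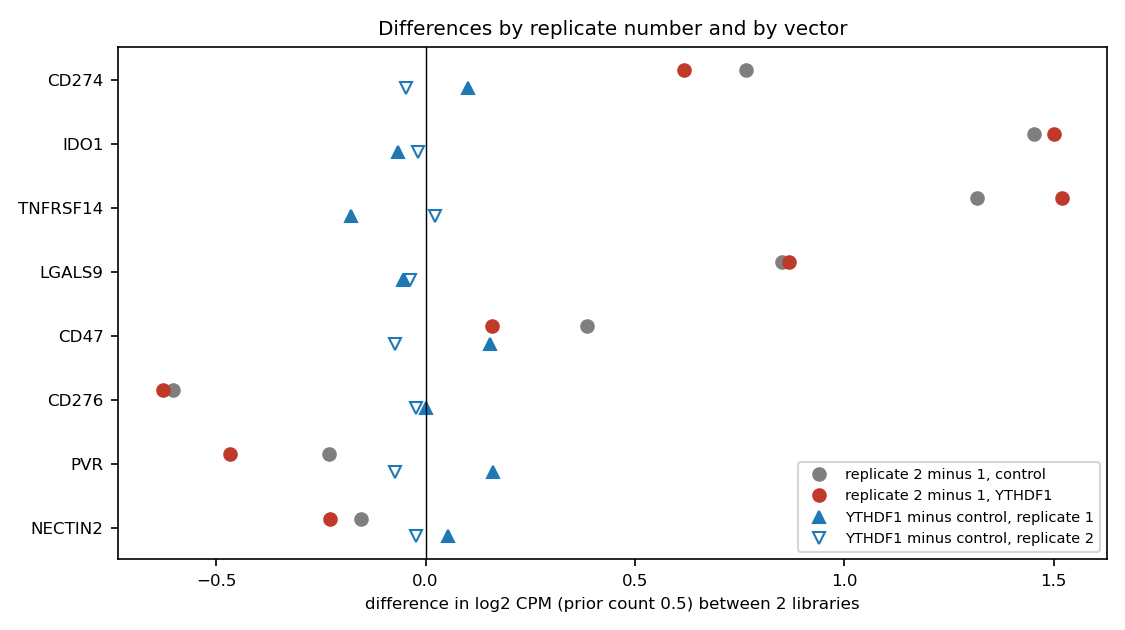
Differences between 2 libraries in log2 CPM (horizontal axis, prior count 0.5) for the 8 tested genes; circles are replicate 2 minus replicate 1 within control (grey) and YTHDF1 (red), and triangles are YTHDF1 minus control within replicate 1 (filled) and replicate 2 (open). The circles of a gene lie on the same side of 0, while the triangles lie between -0.18 and 0.16 and on opposite sides of 0 for CD274, CD276, PVR, NECTIN2, CD47 and TNFRSF14.

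The replicate numbers also differed in many genes outside the set. Of the tested genes 5 of 8 were called higher in replicate 2 and 3 of 8 lower, beside 23.6% and 29.1% of all tested genes. All 8 had replicate numbers that did not overlap, as did 77.1% of all tested genes. The thresholds of the study (0.5 or more on the log2 scale in either direction, and an unadjusted p under 0.05) were passed by 5 of 8 (4 higher and 1 lower), beside 27.9% of all genes. The median log2 fold change was 0.48 over the 8 genes and -0.012 over all genes, and the median size was 0.65 and 0.31. At the 95th percentile of all genes the log2 fold change was 1.01, below those of IDO1 and TNFRSF14. All 4 libraries entered both comparisons, which therefore share their data.

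For the vectors, 0 of 8 genes passed an adjusted p of 0.05 in edgeR's quasi-likelihood test, 0 passed an unadjusted p of 0.05, and 0 had vectors that did not overlap. Over all tested genes 0% were called higher and 0% lower after adjustment, 24 genes had an unadjusted p under 0.05, 0.101% passed the thresholds of the study, and 11.5% had vectors that did not overlap. The median log2 fold change was 0.00051 over the set and 0.0046 over all genes, with a median size of 0.030 and 0.069. YTHDF1 itself, with a log2 fold change of 6.88, was not called after adjustment either (edgeR adjusted p = 1.00). The intervals of these estimates are wide, and each vector group holds the replicate number differences given above. With 2 libraries per group in either comparison, by vector or by replicate number, an exact permutation test of a single gene cannot give a p below 0.333.

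**Figure D3:**
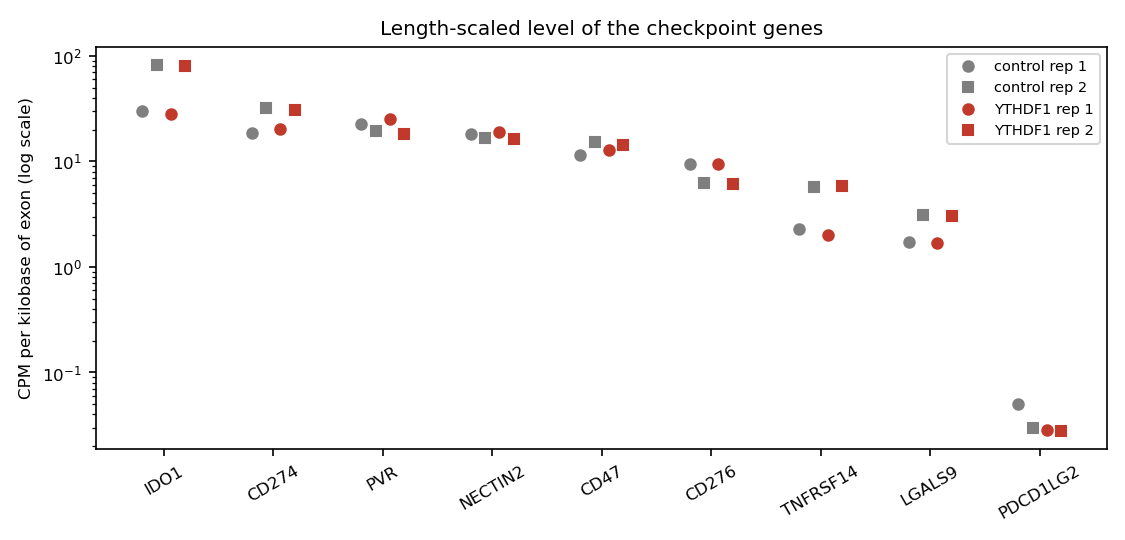
Level of 9 genes as CPM per kilobase of exon (vertical axis, log scale) in each library; circles are replicate 1 and squares replicate 2, grey is control and red is YTHDF1, and VTCN1 at 0 is not drawn. IDO1 is highest in all 4 libraries, and PDCD1LG2 lies below 0.05 in all 4.

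To compare levels between genes, CPM was divided by the length of the merged exons, which was known for 87.0% of the tested genes. IDO1 led with a mean of 55.0 CPM per kilobase over 4 libraries (range 28.4 to 81.5), at the 96.1 percentile of tested genes. CD274 followed at 25.3 (18.7 to 31.8), then PVR at 21.3 (18.3 to 25.2), NECTIN2 at 17.6 (16.3 to 19.1) and CD47 at 13.5 (11.6 to 15.2). The ranges of CD274, PVR and NECTIN2 overlapped, so that their order is not beyond the spread between libraries. CD274 was above PVR in both replicate 2 libraries and below it in both replicate 1 libraries. CD276 was lower, at 7.77 (6.09 to 9.40) CPM per kilobase, with no overlap with CD47 or TNFRSF14. TNFRSF14, at 3.95 (2.02 to 5.80), and LGALS9, at 2.40 (1.67 to 3.14), overlapped in range, at the 48.4 and 38.5 percentile of tested genes. PDCD1LG2 stood at 0.0341 (0.0280 to 0.0498) and VTCN1 at 0.

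Genes with the profile most like CD274 and IDO1 were sought by the root mean square difference of centred log2 CPM over the 4 libraries. For CD274 these were HLCS, a biotin ligase, at 0.0111, MET, a receptor tyrosine kinase, at 0.0138, and DDX60L, an interferon-inducible helicase-like gene, at 0.0145. MET was read at 812, 1344, 860 and 1312 CPM in control 1, control 2, YTHDF1 1 and YTHDF1 2. For IDO1 the nearest were the noncoding LOC105372202 at 0.0196, GBP4, an interferon-inducible GTPase, at 0.0246, and PADI2, a peptidylarginine deiminase, at 0.0253. GBP4 was read at 211, 597, 201 and 589 CPM in the same order. Within a difference of 0.05 lay 127 genes for CD274 and 13 for IDO1, so the CD274 profile was shared by many genes. PDCD1LG2 was not tested and was given no nearest genes.

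Of 15 listed receptors 6 passed the filter. In replicate 2, 0 were called higher and 2 were called lower, beside 23.6% and 29.1% of all tested genes. SIRPA, the receptor of CD47, had 1232 and 1259 counts in replicate 1 of control and YTHDF1 and 0 and 7 in replicate 2 (edgeR adjusted p = 1.18e-07). BTLA, which binds TNFRSF14, had 33 and 29 counts in replicate 1 and 3 and 4 in replicate 2 (edgeR adjusted p = 0.00114). PDCD1, which encodes PD-1, had 3 counts in YTHDF1 replicate 2 and 0 in the other libraries. The median log2 fold change over the 6 receptors was -1.05, with 3 of the 6 above 0.

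Other checkpoint ligands showed no common direction. Of 34 listed, 24 were tested, and their median log2 fold change was -0.18. In replicate 2, 7 were called higher and 10 lower, beside 23.6% and 29.1% of all tested genes. NCR3LG1 (B7-H6), the ligand of the NK cell receptor NKp30, was at 18.4 and 20.4 CPM in replicate 1 of control and YTHDF1 and at 55.4 and 56.4 CPM in replicate 2, a log2 fold change of 1.53 (SE 0.0635). In the other direction, CD40, a costimulatory receptor, had 1539 and 1590 counts in replicate 1 and 0 and 6 in replicate 2. NT5E, the ecto-enzyme that makes adenosine, was at 23.2 and 26.2 CPM in replicate 1 and at 2.82 and 2.19 CPM in replicate 2. VSIR (VISTA), a further B7-family protein, was at 7.70 and 7.73 CPM in replicate 1 and at 0.599 and 0.547 CPM in replicate 2. These 4 genes had the smallest p of the list in edgeR's quasi-likelihood test, and each had replicate numbers that did not overlap.

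The genes listed around IDO1 did not move as a whole. The list of 15 genes held kynurenine pathway enzymes and also a tRNA synthetase, amino acid transporter genes and a receptor. Its counts therefore do not describe the enzymes alone. Of the 15 genes, 9 were tested, with a median log2 fold change of -0.018. In replicate 2, 3 were called higher and 4 lower, beside 23.6% and 29.1% of all tested genes. WARS1, the tryptophanyl-tRNA synthetase, rose with IDO1, from 1566 and 1638 CPM in replicate 1 to 2430 and 2431 CPM in replicate 2 (log2 fold change 0.60). KYAT3, a kynurenine aminotransferase, rose by 0.56 (SE 0.0472). SLC7A5, which carries tryptophan and kynurenine across the membrane, fell from 364 and 353 CPM to 148 and 146 CPM (log2 fold change -1.29, SE 0.0364). AADAT, another kynurenine aminotransferase, had 435 and 409 counts in replicate 1 and 0 in both replicate 2 libraries, at least 139-fold higher in replicate 1 when 3 counts are allowed in each library at 0. The alternative first enzymes were almost unread: IDO2 had 0, 0, 13 and 8 counts and TDO2 had 0, 4, 0 and 12 counts in control 1, control 2, YTHDF1 1 and YTHDF1 2.

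The pathway from the IFN-γ receptor to IRF1 was higher in replicate 2 in most of its members. All 18 listed genes were tested, and 11 were called higher and 2 lower, beside 23.6% and 29.1% of all tested genes. Their median log2 fold change was 0.24, beside -0.012 over all genes. JAK2 was at 79.9, 125, 83.3 and 127 CPM in control 1, control 2, YTHDF1 1 and YTHDF1 2, a log2 fold change of replicate 2 against 1 of 0.63 (SE 0.0423). IRF1, the factor that binds the CD274 promoter in the textbook pathway, was at 813, 1044, 832 and 1078 CPM, a log2 fold change of 0.37 (SE 0.0467). The rise of IRF1 was smaller than that of IDO1, TNFRSF14, LGALS9 or CD274, although no test compared genes with each other. Between the vectors the log2 fold change of IRF1 was 0.040 and that of JAK2 was 0.041.

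Genes near CD274 on 9p24 were tested in 11 of 14 cases. In replicate 2, 6 were called higher and 0 lower, beside 23.6% and 29.1% of all tested genes. Their median log2 fold change was 0.38, beside -0.012 over all genes. ERMP1 (-0.097), KIAA2026 (-0.056) and CDC37L1 (-0.12) had negative log2 fold changes and were not called, nor were AK3 and RLN2. Besides JAK2, which belongs to both lists, RANBP6, an importin, rose by 0.38 (SE 0.0492), PLGRKT, a plasminogen receptor, by 0.48 (SE 0.0716) and RCL1, a ribosome biogenesis factor, by 0.42 (SE 0.0643). CD274 rose by 0.69 in the same comparison, and RLN1, a 9p24 neighbour with 35 to 94 counts, rose by more, 1.24 (SE 0.25). Genes whose products handle PD-L1 or CD47 protein were mixed, with 15 of 16 tested, 6 called higher and 7 called lower, beside the same shares. DCBLD2, a membrane receptor, was at 589, 8.32, 638 and 8.08 CPM in control 1, control 2, YTHDF1 1 and YTHDF1 2, and B3GNT3, which glycosylates PD-L1, was at 8.11, 0.0705, 9.66 and 0.149 CPM. CMTM4, which stabilises PD-L1 protein, fell by 0.47 (SE 0.0415), and COPS5, which deubiquitinates it, fell by 0.38 (SE 0.0436). The mRNA levels measured here hold no information on PD-L1 protein. In none of these lists was a gene called between YTHDF1 and control by edgeR's quasi-likelihood test, and none had an unadjusted p under 0.05.

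**Figure D4:**
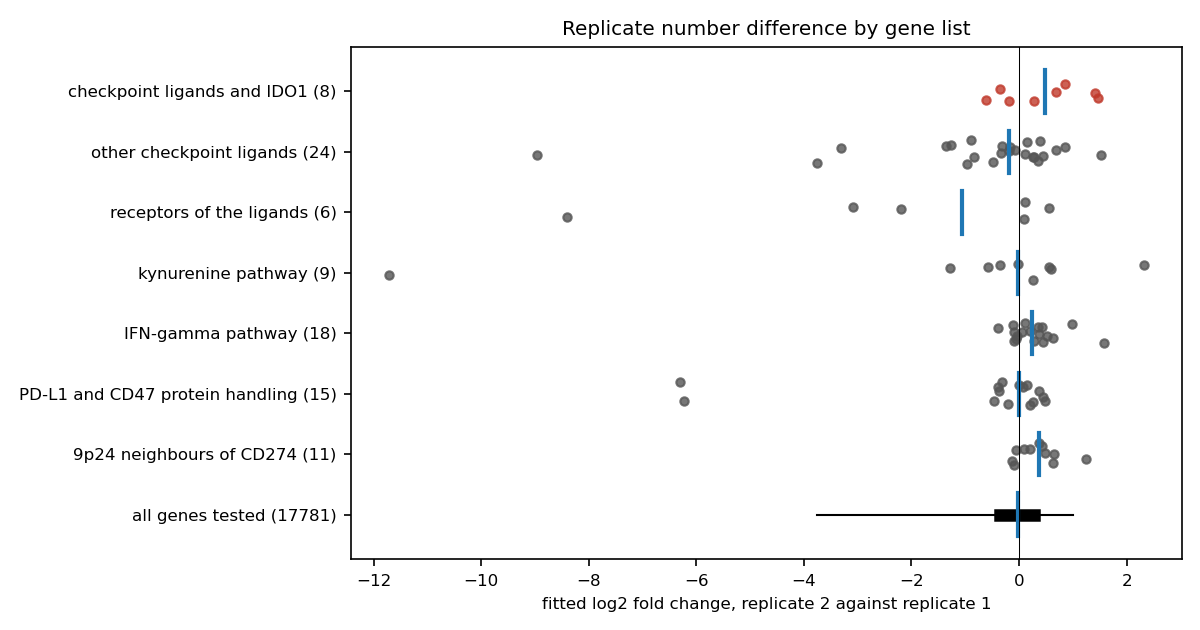
Fitted log2 fold change of replicate 2 against replicate 1 (horizontal axis) for each tested gene of the set (red) and of 6 gene lists (grey), with the number of genes in parentheses and blue bars at the medians; for all genes the thick black bar spans the 25th to 75th and the line the 5th to 95th percentile. The set and the IFN-γ pathway have medians above 0 (0.48 and 0.24), and the far left points are genes much lower in replicate 2.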

How the data were processed

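The authors deposited a table of raw read counts per gene for the 4 libraries, with whole numbers and no normalization. The submitters' processing notes name Trimmomatic, HISAT2 and the build GRCh38. The counting tool, its strand setting and the annotation are not given in the sources used here. Libraries were made from mRNA with a stranded kit. Genes were filtered with filterByExpr, scaled with TMM, and tested across all genes with edgeR 4.0.16 (R 4.3.3, limma 3.58.1) by the quasi-likelihood test, with no covariates, once by vector and once by replicate number. p-values were adjusted by Benjamini-Hochberg over 17781 genes. The labels call the samples biological replicates. Between vectors, p-values measure only the spread between the replicates of a vector. Between replicate numbers, they measure only the spread between the control and the YTHDF1 library of a number. The labels do not say whether same-numbered libraries are independent, so p-values between replicate numbers may be too small. Standard errors and 95% intervals come from the same fit, and ratios within a replicate number carry exact 95% intervals for counting error only. The steps were tested on simulated data. Alternatives were DESeq2 1.42.0, DESeq2 size factors, other filters, YTHDF1 left out of the counts, a replicate block and each library left out. The text names every gene of the set, YTHDF1, IRF1, JAK2, up to 4 genes of each other list with the smallest p between replicate numbers, and the 3 nearest profiles; 1 further gene of this rule is not reported here. Genes at or near 0, overlapping genes and the near-identical copies of LGALS9 were named after their values were seen. The members and lists were chosen with earlier results of these data known.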

Additional observations from a re-analysis of the deposited data

How the results depend on the processing

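The replicate number comparison kept its direction for all 8 tested genes in all alternatives run, and 8 were called in each except without control replicate 2 and without YTHDF1 replicate 2, where 7 were called and NECTIN2 was lost. Between vectors, no gene of the set was called in any alternative. Over all genes 0 were called between vectors, against 3 with the DESeq2 Wald test, 10 with the replicate block and 21 with the replicate block and the DESeq2 Wald test, the last chosen after seeing the data. The replicate numbers gave 2 pairs only, and nothing in the labels says what they share. Deviations of same-numbered libraries from their vector means correlated across genes at r = 0.875. With the replicate block, log2 fold changes of the set between vectors lay between -0.065 and 0.047, with 95% intervals inside -0.234 and 0.184 and an adjusted p of 0.9995 in edgeR's quasi-likelihood test. Leaving out 1 library turned the sign of every vector difference of the set, since the remaining libraries are unbalanced in replicate number. The ranges were -0.34 to 0.44 for CD274, -0.35 to 0.33 for CD276, -0.15 to 0.23 for CD47, -0.97 to 0.87 for IDO1, -0.55 to 0.45 for LGALS9, -0.099 to 0.12 for NECTIN2, -0.19 to 0.27 for PVR and -0.99 to 0.77 for TNFRSF14. In these fits a vector with 1 library is assumed to vary like the other. Depth limited what could be said of PDCD1LG2 and VTCN1.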
